A study of Mus musculus with 14 samples.

Results

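The transcripts of 6 genes that mark the glucagon-producing alpha cells or the somatostatin-producing delta cells of the pancreatic islet were followed across 14 islet samples. The alpha cell genes were Irx1, Irx2 and Pou3f4, and the delta cell genes were Hhex, Ghsr and Lepr. They were chosen by name, as genes with a probe set annotated to that gene alone, and all 6 were found among 18820 measured genes, each with 1 probe set. Each sample held the islets of a single mouse by the wording of its labels, and each was hybridised to 1 whole-transcript array. They came from C57BL/6 wild types (WT) or from animals with a double knockout of Tlr2 and Tlr4 on a C57BL/6 background (DKO), which takes a pair of innate immune receptors from the whole animal. All ate a diet with 60% fat from 6 weeks of age, for 5 weeks (4 WT and 2 DKO arrays) or for 7 months (4 WT and 4 DKO arrays), so every group had been fed that diet and the later groups were also older. Age and time on the diet cannot be told apart. The series title concerns the part of both receptors in beta cell expansion, and the members here belong to the other islet endocrine cells.

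Alpha cells secrete glucagon, which raises blood glucose, and delta cells secrete somatostatin, which restrains the release of insulin and glucagon from neighbouring cells. Irx1 and Irx2 are Iroquois homeodomain transcription factors, and Pou3f4 is a POU domain transcription factor expressed in the alpha lineage. Hhex is a homeodomain factor needed for the delta lineage and is also expressed in endothelial cells. Ghsr, the ghrelin receptor, and Lepr, the leptin receptor, are hormone receptors used as markers of delta cells, and Lepr is also known from stromal and vascular cells. In whole islets, fewer cells of a type and less RNA per cell cannot be told apart.

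The values are log2 signals after RMA, the background correction, normalization and probe set summary that the authors applied. Array medians lay between 3.89 and 3.98. Tlr2 was 6.22 to 6.62 in the 8 WT arrays and 4.77 to 5.41 in the 6 DKO arrays, so each array matched its genotype label in that gene. The dim probe set of Tlr4 was 2.70 to 3.44 in WT and 2.85 to 3.60 in DKO, below every array median in its group means, and serves here as no check of the labels, since its place relative to the deletion is unknown. Signals of different probe sets are not compared as levels, because each binds with its own strength. The members were dim to moderate, between percentiles 40.3 (Lepr) and 63.5 (Irx2) of all probe sets. The means of Lepr in all 4 groups, of Pou3f4 in both groups at 7 months and of Irx1 in DKO at 7 months lay below every array median, so the sizes of their differences are not exact. A linear model of the 4 groups was fitted to all genes with limma, and a gene passed at an adjusted p under 0.05. The 5 comparisons share groups of arrays and are not independent of each other.

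The 3 alpha cell factors fell with time on the diet in both genotypes, and Irx1 and Irx2 were lower in DKO than in WT islets at 7 months. In WT islets 3 of 6 members fell between 5 weeks and 7 months, against 1.01% of all genes that fell and 2.37% that passed in either direction (fallen genes were 0.988% to 1.2% under other scalings of the arrays), and these were Irx1, Irx2 and Pou3f4. In DKO islets 4 of 6 fell, the same alpha cell factors and Ghsr, against 2.7% of all genes that fell and 7.57% that passed in either direction (fallen genes were 2.14% to 3.56% under other scalings), and Lepr rose, against 4.86% (3.49% to 6.82%). At 7 months 2 of 6 were lower in DKO than in WT, against 2.27% of all genes that were lower and 4.71% that passed in either direction (lower genes were 1.56% to 2.64% under other scalings). With the mean of 13 stellate cell, pericyte and fibroblast genes (the stromal marker genes) as a covariate, 0 of 6 members passed at 7 months by limma and 1 of 6 (Irx2) in DKO over time, while the 3 falls in WT passed. Of all genes, 55 passed with that covariate at 7 months in place of 887. In DKO over time 169 passed in place of 1424, and in WT 273 in place of 446. The covariate did not overlap between the groups in any of these comparisons, which limits that model. At 5 weeks 0 of 6 members passed between the genotypes by limma, against 0.994% of all genes in either direction, and 1 of 6 (Hhex) had an unadjusted p under 0.05, against 12.1%. For the interaction, the difference between the genotype effects at both times, 0 of 6 passed by limma, against 0.0903% of all genes, and 2 of 6 (Irx2 and Ghsr) had an unadjusted p under 0.05, against 10.1%. Counted by arrays that did not overlap at all, 1 of 6 members was lower in DKO at 5 weeks (10.3% of all genes) and 3 of 6 at 7 months (5.25%). Over time 4 of 6 were lower in WT (3.66%). In DKO 5 of 6 were lower over time (11.1%) and 1 of 6, Lepr, was higher (26.7% of all genes did not overlap in either direction). The median of the 6 members was -0.76 in WT and -1.16 in DKO over time, against 0.03 and 0.02 for all genes, and -0.32 between genotypes at 7 months, against 0.01.

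**Figure D1:**
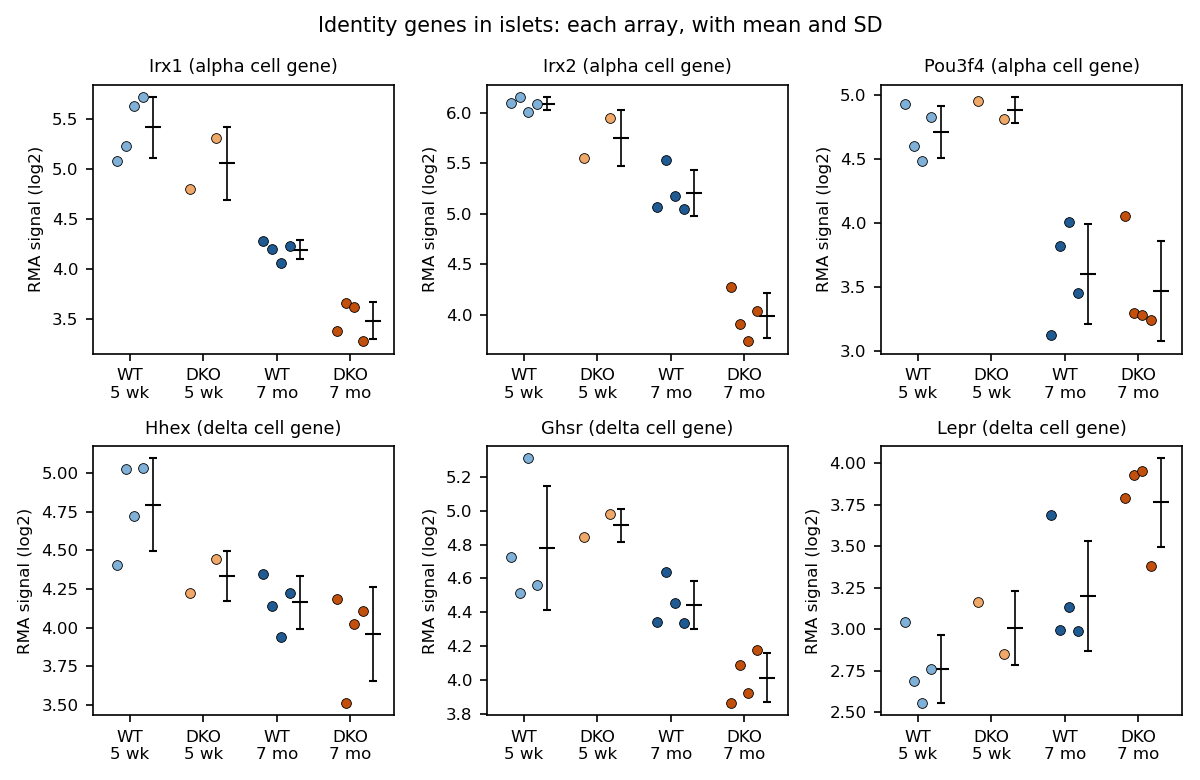
Log2 RMA signal of each member (vertical axis) in each array, by group, with points for arrays in order of replicate number and a bar for the group mean and SD (n = 4, 2, 4 and 4). Irx1 and Irx2 step down from both groups at 5 weeks to WT at 7 months and again to DKO at 7 months, where Irx2 lies between 3.74 and 4.27, while Lepr is highest in DKO at 7 months.

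The stretch of 250 bases before the annotated start is shown for Irx2, Pou3f4 and Ghsr, the 3 members with a listed promoter that fell together in DKO islets over time. The sequences are those of RefSeq on GRCm38.p6 and are not measurements of these mice. Windows were listed for 5 of 6 members, and Irx1 had no entry. The Irx2 window is chr13:72628570-72628819, that of Pou3f4 is chrX:110814129-110814378 and that of Ghsr is chr3:27371101-27371350, all on the plus strand. Capitals mark matches, on either strand, to the GC box, whose letters are GGGCGG, or to the CCAAT box, named for its own letters, and a match on the other strand appears as the reverse complement.
Irx2: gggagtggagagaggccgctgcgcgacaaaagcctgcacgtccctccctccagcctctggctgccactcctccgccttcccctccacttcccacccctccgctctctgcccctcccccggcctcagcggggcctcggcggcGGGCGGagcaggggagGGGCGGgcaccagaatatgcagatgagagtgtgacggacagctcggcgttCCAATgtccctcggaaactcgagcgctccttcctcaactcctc
Pou3f4: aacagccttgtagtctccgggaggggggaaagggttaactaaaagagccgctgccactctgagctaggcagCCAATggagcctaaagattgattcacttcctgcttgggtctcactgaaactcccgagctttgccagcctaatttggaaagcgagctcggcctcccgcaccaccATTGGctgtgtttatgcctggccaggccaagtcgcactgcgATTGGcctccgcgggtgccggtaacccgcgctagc
Ghsr: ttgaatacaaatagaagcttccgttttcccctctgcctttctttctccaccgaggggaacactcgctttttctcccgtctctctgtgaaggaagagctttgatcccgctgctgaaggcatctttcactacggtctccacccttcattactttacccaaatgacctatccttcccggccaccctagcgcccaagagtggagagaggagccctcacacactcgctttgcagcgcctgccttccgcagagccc
Irx2 held 2 GC box matches and 1 CCAAT match, Pou3f4 held 3 CCAAT matches, and Ghsr held neither. Of 32851 listed windows of this length, 32.7% hold GGGCGG and 33.8% hold CCAAT. None of the 3 windows held TATAAA (12.4% of windows), TAATTA, a core bound by many homeodomain proteins (4.84%), or TGTTTAC, a forkhead motif (3.17%), on either strand. The GC content was 68.4% for Irx2, 58.0% for Pou3f4 and 54.0% for Ghsr, against a median of 52.4%. These matches describe letters only, and the arrays measured no binding.

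Irx2 had the largest difference between genotypes of the 6 members. Its log2 signal was 6.10, 6.16, 6.00 and 6.09 in WT and 5.55 and 5.95 in DKO at 5 weeks, and 5.06, 5.54, 5.18 and 5.05 in WT and 4.27, 3.91, 3.74 and 4.04 in DKO at 7 months. WT stood above DKO at each time and both 5-week groups above both 7-month groups, and no group overlapped its neighbour in that order. At 7 months it was 2.33-fold lower in DKO (-1.22 ± 0.13 log2, SE, limma adjusted p = 7.46e-05, n = 4 and 4). The mean of the stromal marker genes did not overlap between the genotypes there, so as a covariate it can be told from genotype only poorly. With that mean in the model Irx2 was at -1.38 and the call was lost (limma adjusted p = 0.0537). Over time it fell 1.84-fold in WT (-0.88 ± 0.13, limma adjusted p = 0.00242, n = 4 and 4) and 3.39-fold in DKO (-1.76 ± 0.16, limma adjusted p = 2.28e-05, n = 2 and 4). The 5-week difference between genotypes was -0.34 ± 0.16 (limma adjusted p = 0.421). Both DKO arrays lay below all WT arrays there, as the arrays of 10.3% of all genes did. The interaction was -0.88 ± 0.21 (95% interval -1.32 to -0.44) and did not pass (limma adjusted p = 0.145), so the fall over time is not shown to differ between the genotypes.

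Irx1, the adjacent coding gene to Irx2 on the RefSeq map of GRCm38.p6, showed a like order of groups. Its signal was 5.08, 5.23, 5.63 and 5.71 in WT and 4.80 and 5.31 in DKO at 5 weeks, which overlapped. At 7 months it was 4.28, 4.20, 4.06 and 4.23 in WT and 3.38, 3.66, 3.62 and 3.28 in DKO, with every DKO array below every WT array. It was 1.63-fold lower in DKO at 7 months (-0.71 ± 0.15, limma adjusted p = 0.0134). That call was lost with the mean of the stromal marker genes as a covariate (-0.45, limma adjusted p = 0.673), under the same limit of that model. Over time it fell 2.33-fold in WT (-1.22 ± 0.15, limma adjusted p = 0.000471) and 2.97-fold in DKO (-1.57 ± 0.18, limma adjusted p = 0.000174). Its 5-week difference between genotypes was -0.36 ± 0.18 (limma adjusted p = 0.461), and its interaction was -0.35 ± 0.24 (95% interval -0.85 to 0.15).

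Pou3f4 separated the times but not the genotypes. Its signal was 4.93, 4.60, 4.49 and 4.83 in WT and 4.96 and 4.81 in DKO at 5 weeks, and 3.13, 3.82, 4.01 and 3.46 in WT and 4.06, 3.30, 3.28 and 3.24 in DKO at 7 months. All 8 arrays at 7 months lay below all 6 at 5 weeks, and the genotypes overlapped at each time. It fell 2.15-fold in WT (-1.11 ± 0.20, limma adjusted p = 0.00855) and 2.67-fold in DKO (-1.42 ± 0.24, limma adjusted p = 0.00289). Between genotypes it differed by 0.17 ± 0.24 at 5 weeks (95% interval -0.35 to 0.70) and by -0.13 ± 0.20 at 7 months (95% interval -0.56 to 0.29), and neither passed (limma adjusted p = 0.858 and 0.783). In DKO at 7 months replicate 1 stood apart at 4.06. Without DKO replicate 1 of the 5-week arrays the fall in DKO was -1.34 (limma adjusted p = 0.053), with the lone remaining array assumed to vary like the other groups.

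**Figure D2:**
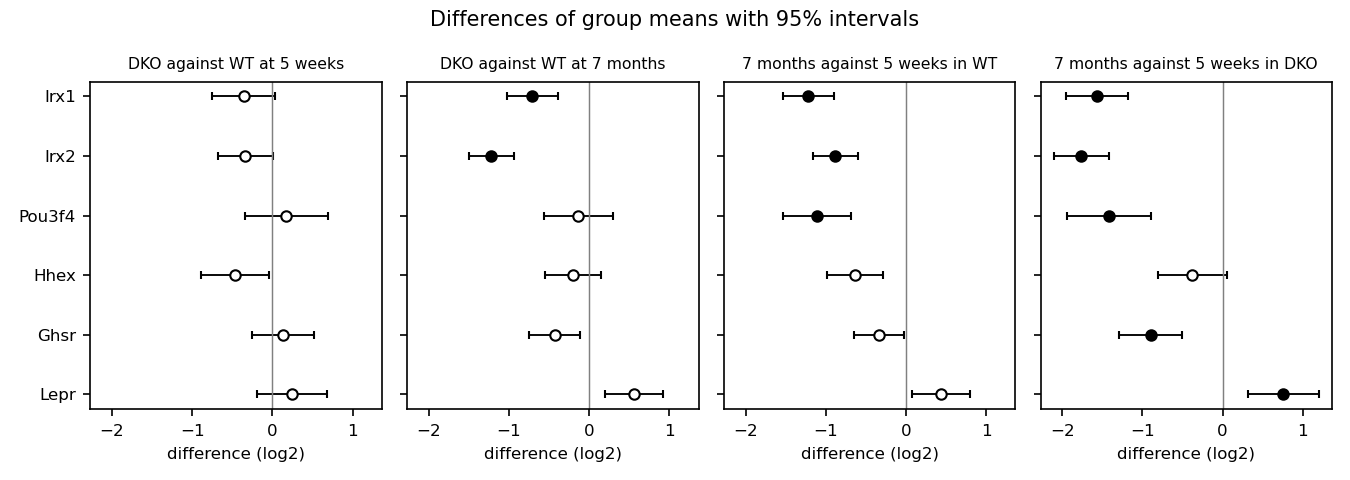
Log2 difference between group means (horizontal axis) with its 95% interval from the model for each member in 4 comparisons, with filled points for limma adjusted p under 0.05. Irx1 and Irx2 lie to the left of 0 with filled points in 3 panels, Pou3f4 in both panels of time, and Lepr alone lies to the right of 0 in all 4 panels.

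Other genes of the Iroquois and POU class III families were measured beside these factors. Of 6 Iroquois genes, Irx1 and Irx2 passed as given above, and Irx3, Irx4, Irx5 and Irx6 did not pass in any of the 5 comparisons. Irx4, the coding gene on the other side of Irx2 on the RefSeq map, was 2.56 to 3.08 in all arrays, below every array median, and differed by -0.19 ± 0.11 between genotypes at 7 months (limma adjusted p = 0.379). Irx3 differed by 0.13 ± 0.13 there (limma adjusted p = 0.644). Of 4 POU class III genes, Pou3f4 fell in both genotypes over time, and Pou3f1, Pou3f2 and Pou3f3 did not pass in any comparison. The means of these 3 genes, Irx5 and Irx6 in all 4 groups lay below every array median, as did those of Irx3 at 7 months. A fall is hard to see in such dim signals, so a change particular to Irx1, Irx2 and Pou3f4 within their families is not shown. The median over the Iroquois list was -0.12 at 7 months between genotypes, against 0.01 for all genes.

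Ghsr was the only one of the 3 delta cell members that fell past the threshold, and it did so in DKO islets. Its signal was 4.73, 4.52, 5.31 and 4.56 in WT and 4.85 and 4.98 in DKO at 5 weeks. At 7 months it was 4.34, 4.64, 4.45 and 4.34 in WT and 3.87, 4.09, 3.92 and 4.18 in DKO, with every DKO array below every WT array. That complete separation downwards held for 5.25% of all genes, and the difference of -0.43 ± 0.15 did not pass (limma adjusted p = 0.123). Over time Ghsr fell 1.86-fold in DKO (-0.90 ± 0.18, limma adjusted p = 0.00782). It did not pass in WT (-0.34 ± 0.15, limma adjusted p = 0.311), where WT replicate 3 at 5 weeks was the highest array of all. The interaction was -0.56 ± 0.23 (limma adjusted p = 0.423), so a difference between the falls is not shown. The call in DKO was lost when either 5-week DKO array was left out (-0.97 without replicate 1 and -0.83 without replicate 2, limma adjusted p = 0.0591 and 0.0595).

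Hhex did not pass in any of the 5 comparisons, and its fall in WT over time lay close to the threshold. Its signal was 4.40, 5.03, 4.72 and 5.03 in WT and 4.22 and 4.45 in DKO at 5 weeks, and 4.35, 4.14, 3.94 and 4.23 in WT and 4.19, 3.51, 4.02 and 4.11 in DKO at 7 months. The group means ran downwards in that order. Within each genotype all arrays at 7 months lay below all arrays at 5 weeks, as for 3.66% of all genes in WT and 11.1% in DKO. At each time the genotypes overlapped. Over time it differed by -0.63 ± 0.16 in WT (95% interval -0.98 to -0.29, limma adjusted p = 0.0585) and by -0.38 ± 0.20 in DKO (95% interval -0.80 to 0.05, limma adjusted p = 0.293). In WT it passed when WT replicate 1 of the 5-week arrays was left out (-0.77, limma adjusted p = 0.0282). It also passed there with array weights (limma adjusted p = 0.0302), with dim genes left out (0.0388), with only the compared arrays in the fit (0.0453) and with arrays centred on the named probe sets (0.0474). Between genotypes it differed by -0.46 ± 0.20 at 5 weeks (limma adjusted p = 0.359) and -0.21 ± 0.16 at 7 months (limma adjusted p = 0.556).

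Lepr ran the other way. Its signal was 3.04, 2.69, 2.56 and 2.76 in WT and 3.16 and 2.85 in DKO at 5 weeks, and 3.69, 3.00, 3.13 and 2.99 in WT and 3.79, 3.93, 3.95 and 3.38 in DKO at 7 months. The 4 DKO arrays at 7 months lay above both DKO arrays at 5 weeks. Of all genes 26.7% did not overlap there in either direction, and 11.1% did so downwards. WT replicate 1 at 7 months, at 3.69, fell within the range of DKO at that time. It rose 1.69-fold over time in DKO (0.76 ± 0.21, limma adjusted p = 0.0373). This call was lost without any single one of 5 arrays, namely DKO replicates 1 and 2 at 5 weeks and DKO replicates 1, 2 and 3 at 7 months (0.60 to 0.91, limma adjusted p = 0.0569 to 0.215). It was also lost with only the compared arrays in the fit (limma adjusted p = 0.0926), with array weights (0.0622), with arrays centred on the named probe sets (0.0553) and with the mean of the acinar or of the stromal marker genes as a covariate (0.0723 and 0.159). In WT it differed by 0.44 ± 0.17 (95% interval 0.08 to 0.80, limma adjusted p = 0.232). Between genotypes at 7 months it differed by 0.56 ± 0.17 (limma adjusted p = 0.0738), and this passed without WT replicate 1 (0.73, limma adjusted p = 0.0181) or without DKO replicate 4 (0.69, limma adjusted p = 0.0335). This difference also passed with array weights (limma adjusted p = 0.044) and with arrays centred on the median of all probe sets (0.0496). With the mean of the acinar or of the stromal marker genes as a covariate it did not (0.156 and 0.371).

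Genes of the ghrelin and leptin receptor pathways were read beside their receptors. Of 10 genes of the ghrelin receptor axis, Ghrl, which encodes ghrelin itself, and Prkce, a protein kinase C, were lower in DKO at 7 months (-1.40 ± 0.34 and -0.37 ± 0.08, limma adjusted p = 0.0302 and 0.0187), and 8 did not pass. Over time in DKO the same list had 3 that fell, Ghrl (-2.13 ± 0.42), Ghsr and Prkce (-0.41 ± 0.10), and 7 that did not pass. Plcb1, a phospholipase that acts after Gq-coupled receptors, was higher in DKO at 5 weeks (0.48 ± 0.10, limma adjusted p = 0.0436) and rose over time in WT (0.38 ± 0.09, limma adjusted p = 0.0279). Of 10 genes of leptin receptor signalling, Lepr and Leprot rose over time in DKO and 8 did not pass, with Cish, a suppressor of cytokine signalling, at -1.001 ± 0.30 (limma adjusted p = 0.058). Leprot, whose transcript arises beside that of Lepr at the same locus, rose by 0.47 ± 0.13 (limma adjusted p = 0.0388). Signal from the shared part cannot be told apart by symbol. Leprot had 2 probe sets, of which the brightest is given. The place of these and of the Lepr probe set in the locus is unknown here. In the other 4 comparisons 0 of these 10 leptin pathway genes passed by limma, with 1 to 3 at an unadjusted p under 0.05.

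Each member was then set against the hormone gene of its cell type within the same array, as a difference of log2 signals. Gcg, the glucagon gene, was 12.90 to 13.01 in WT and 12.81 to 12.91 in DKO at 5 weeks, and 12.73 to 12.84 in WT and 11.91 to 12.26 in DKO at 7 months. Sst, the somatostatin gene, was 12.85 to 12.91 and 12.78 to 12.85 at 5 weeks, and 12.52 to 12.74 and 11.58 to 11.89 at 7 months, in the same order. Both hormone genes were thus lowest in DKO at 7 months, with no overlap with any other group. These are signals near the top of the range of all probe sets, so their own sizes of change may be compressed, and an unequal change does not show that either gene kept its level. The 24 differences were tested by two-sided exact permutation of the arrays, where the smallest possible p is 0.0667 at 2 against 4 arrays and 0.0286 at 4 against 4. With every test at its smallest p the adjusted values could not go below 0.0571, so none of the 24 could pass, and they are given as descriptions (the smallest adjusted value was 0.098).

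At 7 months Irx2 minus Gcg was -7.66, -7.27, -7.56 and -7.79 in WT and -7.96, -8.35, -8.23 and -7.87 in DKO, a shift of -0.53 with no overlap (exact permutation p = 0.0286, adjusted 0.098). The 4 DKO arrays thus lay below the 4 WT arrays on this scale. For Irx1 minus Gcg the shift was -0.02 (exact permutation p = 0.914), with -8.60 ± 0.21 in DKO (SD, n = 4) and -8.58 ± 0.10 in WT (SD, n = 4), and the groups overlapped. Irx1 in DKO lay below every array median there, so the size of this shift is not exact. For Pou3f4 minus Gcg it was 0.55 with overlap (exact permutation p = 0.0571), and the means of Pou3f4 lay below every array median in both groups. Gcg itself was lower in DKO there, so this upward shift does not show that Pou3f4 rose. Over time in WT, where Gcg differed by only -0.17 ± 0.09 (limma adjusted p = 0.391), the shifts were -1.05 for Irx1, -0.71 for Irx2 and -0.93 for Pou3f4, each without overlap (exact permutation p = 0.0286, adjusted 0.098).

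Against Sst the shifts of the delta cell members at 7 months were positive. Ghsr minus Sst was -8.18, -8.10, -8.15 and -8.29 in WT and -7.98, -7.80, -7.66 and -7.48 in DKO, a shift of 0.45 (exact permutation p = 0.0286, adjusted 0.098). Lepr minus Sst was -8.83, -9.74, -9.47 and -9.64 in WT and -8.06, -7.96, -7.62 and -8.27 in DKO, a shift of 1.44 (exact permutation p = 0.0286, adjusted 0.098). Neither pair of groups overlapped. The means of Lepr lay below every array median in both groups, so the size of its shift is not exact. Hhex minus Sst shifted by 0.67 with overlap, because DKO replicate 2 lay at -8.38 and the other DKO arrays between -7.66 and -7.55 (exact permutation p = 0.0571). Sst itself was lower in DKO at 7 months (-0.88 ± 0.08, limma adjusted p = 2.35e-05), while Ghsr was at -0.43, a difference that did not pass. The median difference of all genes was 0.01 there, so a gene without a change would also shift upwards against Sst. These positive shifts therefore do not show that a member rose. The share of all genes with such a shift was not counted.

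**Figure D3:**
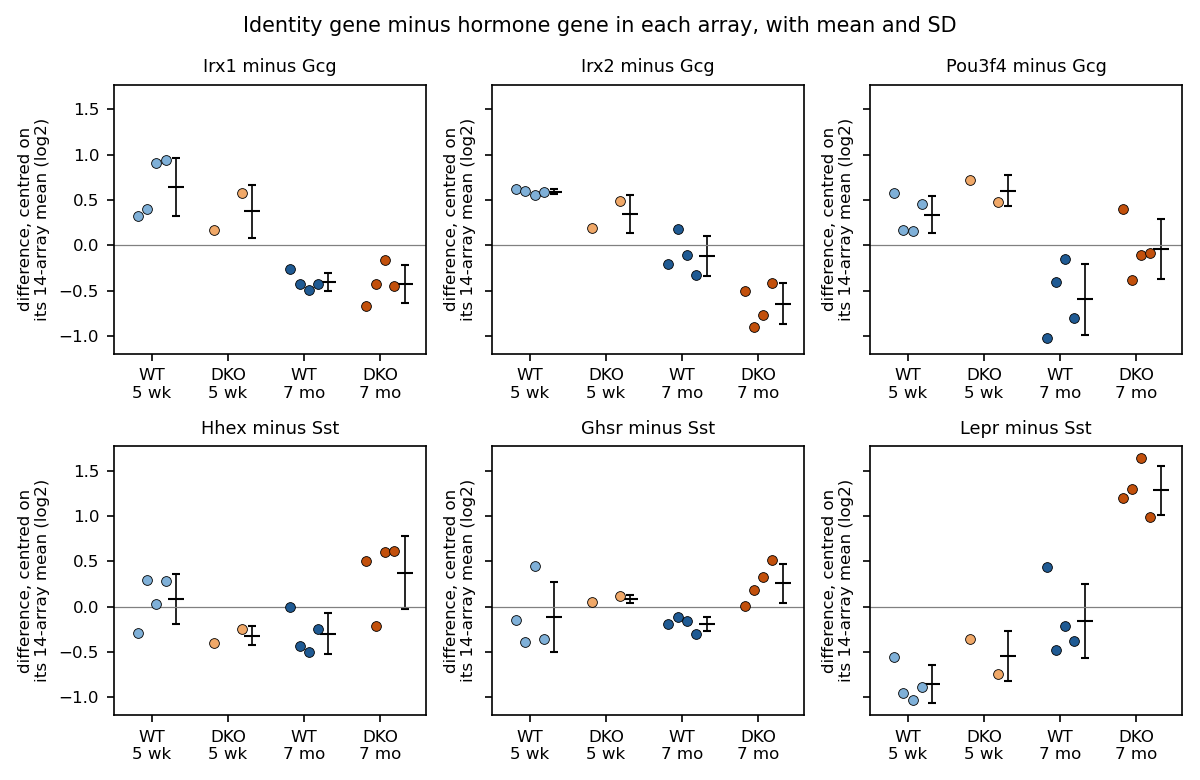
Difference between each member and the hormone gene of its cell type in the same array (log2, centred on the mean of 14 arrays, vertical axis), by group, with points for arrays and a bar for the mean and SD. At 7 months DKO lies below WT for Irx2 minus Gcg and above WT for Ghsr minus Sst and Lepr minus Sst, without overlap in these 3 panels. Gcg and Sst are themselves lower in DKO at that time.

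The other markers of the same cells moved only in part with the members. Of 12 alpha cell genes 9 were measured, and the others were not analysed here. At 7 months Gcg, Irx1 and Irx2 of these 9 were lower in DKO and 6 did not pass. Over time in DKO Irx2, Irx1, Gcg (-0.77 ± 0.11) and Pou3f4 fell as above, and so did Smarca1, a chromatin remodelling enzyme (-0.74 ± 0.18, limma adjusted p = 0.0195). Over time in WT the 4 that fell were Irx1, Irx2, Pou3f4 and Smarca1 (-0.71 ± 0.14, limma adjusted p = 0.0173). At 5 weeks 0 of 9 passed between genotypes by limma and 2 had an unadjusted p under 0.05, with the smallest p for the amino acid transporter gene Slc38a5 (-1.23 ± 0.32, limma adjusted p = 0.0906). Of the 6 alpha cell genes that are not members, 1 was lower and 5 did not pass at 7 months, with a median of -0.18, against 0.01 for all genes. Ttr, the transthyretin gene, was at 0.22 ± 0.16 (limma adjusted p = 0.517).

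All 10 delta cell genes were measured. At 7 months Rbp4, the retinol carrier (-1.91 ± 0.14, limma adjusted p = 2.53e-06), Sst and Ffar4, a fatty acid receptor (-1.17 ± 0.13, limma adjusted p = 0.000107), were lower in DKO and 7 did not pass, the 3 members among them. Over time in DKO 5 fell, namely Rbp4 (-2.73 ± 0.17), Ffar4 (-1.90 ± 0.16), Sst (-1.07 ± 0.10), Ghsr and Spock3 (-0.86 ± 0.20), while Lepr rose and 4 did not pass. The means of Spock3 in all 4 groups and of Ffar4 in DKO at 7 months lay below every array median, so these sizes are not exact. The DKO arrays of Spock3 at 5 weeks were far apart, at 3.44 and 4.33, with WT at 3.41 to 3.59. Over time in WT Rbp4 (-1.002 ± 0.14) and Ffar4 (-0.58 ± 0.13) fell and 8 did not pass. For Rbp4, Ffar4 and Sst the interaction passed (-1.73 ± 0.23, -1.32 ± 0.21 and -0.82 ± 0.13, limma adjusted p = 0.0172, 0.0197 and 0.026), while for Hhex, Ghsr and Lepr it did not. At 5 weeks 0 of 10 passed between genotypes by limma and 2 had an unadjusted p under 0.05, with the smallest p for the calcium-sensing receptor gene Casr (-0.45 ± 0.11, limma adjusted p = 0.0752). Of the 4 delta cell genes that did not pass in DKO over time, Hhex (-0.38), Bche (-0.46) and Prg4 (-0.0026) did not lie above 0, and Casr was at 0.25. The rise of Lepr thus ran opposite to the 5 falls on this list, with the limits given above for Lepr, Ghsr, Ffar4 and Spock3.

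Markers of other cells differed between the same groups. Of 13 stellate cell, pericyte and fibroblast genes, all measured, 7 were higher in DKO at 7 months, against 2.44% of all genes, and 6 did not pass. Those with the smallest p were Col3a1, a collagen gene (1.18 ± 0.18), Dcn, a proteoglycan gene (1.96 ± 0.30), Pdgfra, a growth factor receptor gene (0.83 ± 0.13), and Col1a1, another collagen gene (0.97 ± 0.18). The mean log2 signal of the 13 genes was 4.97 to 5.16 in WT and 5.61 to 6.20 in DKO at 7 months, and 5.18 to 5.46 in WT and 5.06 to 5.27 in DKO at 5 weeks. None of these markers has a true 0 on this scale. The list mean thus set DKO at 7 months apart from every other group, as the members Irx2 and Irx1 did in the other direction. It did not overlap between the genotypes at 7 months or between the times within either genotype. The model that follows can therefore separate its part from genotype and time only poorly, and that part was not otherwise tested. With that list mean as a term in the model, Irx2 at 7 months was -1.38 (limma adjusted p = 0.0537), Irx1 -0.45 (0.673) and Lepr 0.91 (0.371), and 55 of all genes passed in place of 887. The falls in WT over time held with this term, at -1.30 for Irx1, -0.83 for Irx2 and -1.13 for Pou3f4 (limma adjusted p = 0.00154, 0.0141 and 0.0281). In DKO over time Irx2 passed (-1.91, limma adjusted p = 0.00471) and Irx1 (-1.34), Pou3f4 (-1.34), Ghsr (-1.01) and Lepr (1.06) did not (0.0525, 0.154, 0.146 and 0.159).

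Acinar, vascular, immune and beta cell markers were read in the same way. Of 17 acinar cell genes 12 were measured, and Prss3, a trypsinogen gene (2.38 ± 0.58, limma adjusted p = 0.0302), was higher in DKO at 7 months and 11 did not pass. Their mean relative to all arrays ran from -2.43 to 0.67 in WT and from 0.04 to 0.57 in DKO at 7 months, and from -1.64 to 0.57 and from 0.88 to 1.38 at 5 weeks. With the acinar mean as a term, Irx2 and Irx1 at 7 months were -1.30 and -0.73 (limma adjusted p = 0.000313 and 0.0421). Of 12 endothelial genes Tek and Vwf were higher and Emcn lower in DKO at 7 months, and of 12 macrophage genes 4 were higher (Fcgr1, Lyz2, Mrc1 and Itgam) and 8 did not pass. Of all genes 2.44% were higher and 2.27% lower there. The endothelial mean was 6.86 to 6.96 in WT and 7.00 to 7.19 in DKO at 7 months, and the macrophage mean 4.96 to 5.07 and 5.12 to 5.66, and their part in the results was not tested. Of 8 duct genes 6 were measured, with Tspan8 lower (-1.05 ± 0.21) at 7 months, and of 6 Schwann and glial genes 3 were measured and 0 passed in any comparison by limma, with 0 or 1 at an unadjusted p under 0.05. Of 15 beta cell genes 13 were measured and 0 passed in any of the 5 comparisons by limma, with 1 to 4 at an unadjusted p under 0.05 and a median of -0.04 between genotypes at 7 months. Their mean was 10.43 to 10.51 in WT and 10.24, 10.53, 10.20 and 10.21 in DKO at 7 months, so that DKO replicate 2 stood above all WT arrays and the other 3 below them. Without that array 1681 in place of 887 of all genes passed between genotypes at 7 months, and 2 of 6 members did so, as with it. Of 16 genes shared by all islet endocrine cells 15 were measured, and Ptprn (0.62 ± 0.15) and Chgb (0.52 ± 0.14) rose over time in DKO, while 0 passed in the other 4 comparisons by limma, with 0 to 5 at an unadjusted p under 0.05. Ins2, an insulin gene, was 11.76 to 11.99 in all 14 arrays, so that the hormone genes of alpha, beta and delta cells had high signal in every sample.

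**Figure D4:**
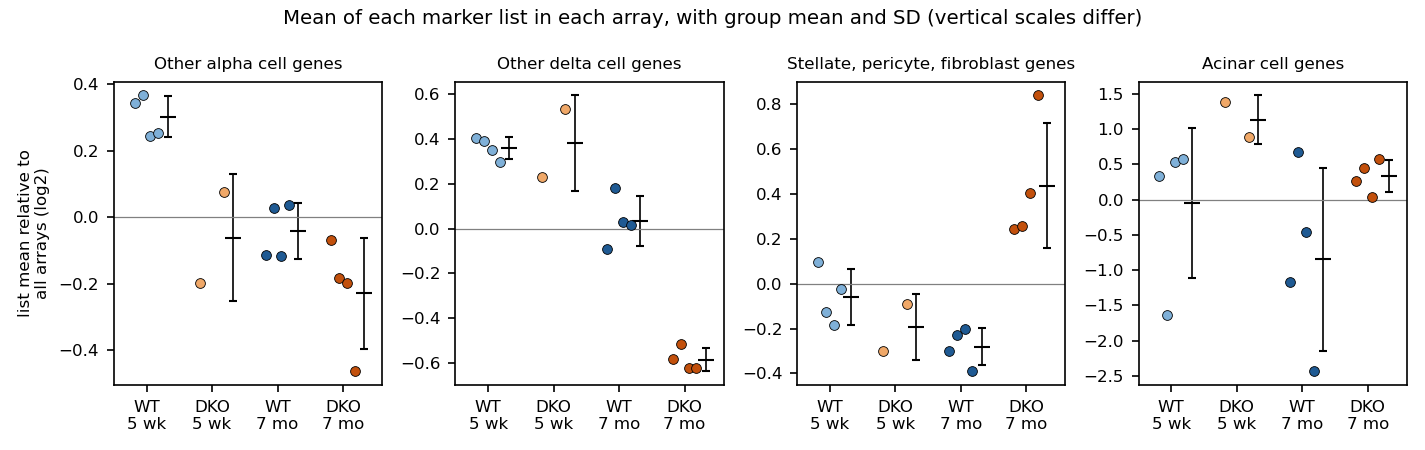
Mean of each marker list in each array relative to the mean of all arrays (log2, vertical axis, scales differ between panels), by group, with points for arrays and a bar for the group mean and SD. In DKO at 7 months the delta cell genes other than the members lie between -0.62 and -0.51 and the stellate, pericyte and fibroblast genes between 0.25 and 0.84, outside the range of every other group.

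Beside the members, 23 of 26 listed transcription factors of the endocrine lineages were measured. At 7 months between genotypes Irx1 and Irx2 passed and 21 did not, with a median of -0.13, and over time Irx1, Irx2 and Pou3f4 fell in each genotype and 20 did not pass. Isl1, a factor of all islet endocrine cells, was at -0.45 ± 0.13 at 7 months (limma adjusted p = 0.0719), Pax6 at -0.15 ± 0.09, Nkx2-2 at -0.03 ± 0.12 and Neurod1 at -0.10 ± 0.10. At 5 weeks 0 of 23 passed by limma and 2 had an unadjusted p under 0.05.

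Genes with a like course over the 14 arrays were sought among 10548 genes whose mean was at or above the median of all probe sets (3.92). Pearson's correlation was used, which here reflects mostly the shared groups and says nothing of shared control. For Irx1 the closest were AW551984 (r = 0.97), Galnt13 (0.97) and Kit (0.96), and for Irx2 they were Rbp4 (0.98), Ndst4 (0.98) and Syt1 (0.97). Ndst4 had group means of 6.05 and 5.84 at 5 weeks and 4.66 and 2.96 at 7 months in WT and DKO. For Pou3f4 they were Car15, Cmtm5 and Apod (0.93 each), and for Ghsr Gap43 (0.92), Cacna2d2 (0.91) and Sgta (0.90). Hhex had the loosest partners, Acot7 (0.89), Wfdc16 (0.85) and Wnk3 (0.84). Lepr was closest to Gdpd1 (0.95), Ginm1 (0.93) and Rnf11 (0.91), which were likewise highest in DKO at 7 months.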

How the data were processed

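The deposited table holds log2 signals of 35556 probe sets in 14 arrays, which the authors made by RMA, per the submitters' processing notes (version not given in the sources used here). Per the labels' protocols, 100 ng of total RNA per sample was labelled. They were used as deposited. Of the probe sets 21218 carried 1 gene symbol, 1881 several and 12457 none, and only the first kind was used. Symbols were updated by Entrez identifier for 18790 of 18820 genes, and the brightest probe set stood for a gene.

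Differences, SEs and p-values came from limma 3.58.1 (lmFit and eBayes) in R 4.3.3, with 1 mean per group over all arrays and Benjamini-Hochberg adjustment over all genes. P-values measure the spread between these samples, whose precision their small number limits. The model was tested on simulated data. Members, gene lists (18, with 150 of 167 named genes measured) and tests were chosen with earlier results of these data known. Genes are named by a rule: the members, Tlr2, Tlr4, Gcg and Sst, up to 4 passing genes of smallest p per list, or the 1 of smallest p where none passed, and the 3 genes most alike to each member. Smarca1, Spock3, Bche, Prg4 and Casr in DKO over time, Ttr, Ins2, Isl1, Pax6, Nkx2-2, Neurod1 and Cish in DKO were named outside it, after their values were seen. So were Irx3, Irx4, Irx5, Irx6, Pou3f1, Pou3f2 and Pou3f3. All columns were matched to samples. Same replicate numbers were not taken to pair the samples. Deviations from group means correlated at -0.16 to 0.16 (median -0.01) in 18 pairs of arrays with the same number. In 54 pairs with different numbers they correlated at -0.15 to 0.19 (median 0.0037). With so few arrays per group this cannot exclude a pairing, and a fit with replicate number as a block is given below.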

Additional observations from a re-analysis of the deposited data

Results flagged for a closer look

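In DKO at 7 months, Pou3f4 in replicate 1 was 4.06, far above the other 3 arrays (3.24 to 3.30) by Dixon's criterion for 4 values, which chance meets in about 1 of 20 groups, and 24 groups of 4 arrays were examined. The genotype effect differed between the times in 4 listed genes, by the limma interaction term. These were Rbp4 (-1.73, adjusted p = 0.0172), Pyy, the peptide YY gene (-1.41, adjusted p = 0.0172), Ffar4 (-1.32, adjusted p = 0.0197) and Sst (-0.82, adjusted p = 0.026). None of the 6 members is among them, and Irx2 (-0.88, adjusted p = 0.145) and Ghsr (-0.56, adjusted p = 0.423) had the smallest p of the members.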

How the results depend on the processing

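Of 631 values of single members under other settings, 602 kept direction and side of the threshold. No member changed direction when quantile normalization was repeated or arrays were centred, on the median of all probe sets or, as a choice made after seeing the data, on that of the named ones. With the stromal list mean as a covariate 0 members passed at 7 months in place of 2, and 1 in DKO over time in place of 5. The list mean does not overlap between the genotypes at 7 months or between the times within either genotype, which limits that model. With 1 array left out, members passing ranged from 2 to 3 between genotypes at 7 months, from 3 to 4 in WT over time and from 2 to 5 in DKO over time, and stayed at 0 at 5 weeks and for the interaction. The 2 came without DKO replicate 1 and a count of 3 without DKO replicate 2 at 5 weeks, where the single array left takes its spread from the rest. Signs turned in values near 0 that had not passed: Ghsr between genotypes at 5 weeks with the acinar mean as a covariate (-0.0157, main value 0.14), Ghsr minus Sst in WT over time without WT replicate 3 of 5 weeks (0.1071, range without any 1 array -0.1733 to 0.1071), and Irx1 minus Gcg at 7 months without WT replicate 1 (0.0267) or DKO replicate 1 (0.0614, range without any 1 array -0.1082 to 0.0614). The cause was not tested.

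With the replicate block, 3 members in place of 2 passed between genotypes at 7 months, since Lepr passed (0.56, limma adjusted p = 0.0436), and it changed no other call of a member. Counts of all genes with the block were 121, 817, 352, 864 and 10, in place of 187, 887, 446, 1424 and 17. Over all settings those counts ran from 44 to 282, 55 to 1681, 221 to 786, 169 to 2051 and 2 to 185. Leaving out dim genes removed Lepr, so that no count over 6 members was made there. Dim signals limit the sizes given for Lepr, for Pou3f4 at 7 months and for Irx1 in DKO at 7 months. Among other genes they limit those of Spock3 and Crhr2.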

Other observations

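Receptors for both hormones were read from lists that hold no member. Of 7 genes of somatostatin receptors and the beta cell ligand of delta cells, 0 passed between genotypes at either time by limma (1 at 5 weeks and 2 at 7 months had an unadjusted p under 0.05), with Ucn3, urocortin 3, at -0.37 ± 0.11 (adjusted p = 0.0641) at 7 months and Sstr2, a somatostatin receptor found on alpha cells, at -0.57 ± 0.24 (adjusted p = 0.344) at 5 weeks. Over time Sstr2 fell in WT (-1.40 ± 0.19, limma adjusted p = 0.00129) and in DKO (-1.39 ± 0.24, limma adjusted p = 0.00268), and Crhr2, the receptor for urocortin 3, fell in DKO (-0.54 ± 0.14, limma adjusted p = 0.0355). The means of Crhr2 in all 4 groups and of Sstr2 in both groups at 7 months lay below every array median, so these sizes are not exact. The DKO arrays of Crhr2 at 5 weeks were far apart, at 3.05 and 3.67, with WT at 3.02 to 3.14. Of 7 genes of the glucagon receptor axis 6 were measured. Gcg was lower in DKO at 7 months and 5 did not pass, and over time in DKO Gcg fell while Gcgr, the glucagon receptor gene, rose (0.83 ± 0.16, limma adjusted p = 0.00594).

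Of the 3 PP and epsilon cell genes, Pyy (-1.40 ± 0.12), Ppy (-0.82 ± 0.17) and Ghrl (-1.40 ± 0.34) were all lower in DKO at 7 months, and all fell over time in DKO, while 0 of 3 passed over time in WT by limma and 1 had an unadjusted p under 0.05 (Ghrl, -1.28 ± 0.34, limma adjusted p = 0.0695).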
